A study of Homo sapiens with 9 samples.

Results

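This account follows 51 genes of the extracellular matrix, the collagens, laminins, other matrix glycoproteins, elastic fibre proteins, proteoglycans and crosslinking enzymes, through 9 RNA sequencing libraries of H1299, an established human lung cancer cell line. The genes were taken from a list by an exact match to the gene names of the deposited expression table, which holds 58735 genes, and all 51 were found. All groups are H1299 cells, labelled as lung adenocarcinoma cells, and no treatment is named for any group. Vector, the control, has 3 libraries from cells of wild type genotype that received the lentiCRISPR v2 plasmid by lentiviral transduction. KO1 and KO2, with 3 libraries each, are cells of BCKDK Knockout genotype, each a monoclonal line obtained by limiting dilution. BCKDK is the kinase that switches off the enzyme complex that commits branched-chain amino acids to breakdown. Each knockout line is 1 clone, so an effect of the edit and a difference that a single founder cell carried cannot be told apart. Whether the 3 libraries of a group are separate cultures is not stated in the labels, and p-values then reflect just the spread among these libraries, possibly technical.

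The extracellular matrix is the protein scaffold that cells secrete around themselves. In the lung, epithelial cells rest on a basement membrane, a thin sheet in which a laminin network, bound by cell surface receptors, is tied by nidogens and the heparan sulphate proteoglycans perlecan and agrin to a network of collagen IV. Beneath it lies interstitial matrix of fibrillar collagens, fibronectin and elastic fibres built on fibrillin microfibrils, and lysyl oxidases and peroxidasin crosslink these proteins outside the cell. Tumour cells make part of their own matrix, and transforming growth factor beta (TGF-beta) is known as a strong inducer of many of these genes.

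Values are FPKM, reads scaled to exon length and to library size, so levels can be compared between genes. Recovered depth was 16002212 to 17090445 reads per library, nearly even. BCKDK transcript, a check of the labels, lay at 12.9 to 17.5 FPKM in the Vector libraries, at 1.67 to 2.06 in KO1 and at 0.287 to 0.628 in KO2. A library in each of 2 groups, Vector replicate 3 and KO2 replicate 3, lay far from its partners. Over the matrix genes with enough signal to be fitted, the root mean square log2 distance was 0.162 between Vector replicates 1 and 2, but 0.552 and 0.478 between these and replicate 3. It was 0.095 between KO2 replicates 1 and 2, and 0.289 and 0.287 to KO2 replicate 3, while the KO1 libraries lay 0.082 to 0.112 apart. None of the 7 markers of lung adenocarcinoma and epithelium (NKX2-1, NAPSA, SFTPB, SFTPC, KRT7, EPCAM and CDH1) reached a mean of 0.5 FPKM, and their summed level was 0.413 to 1.36 FPKM. The mesenchymal genes VIM, CDH2 and ZEB1 were all present, summing to 468 to 834 FPKM. The 9 fibroblast and pericyte markers summed to 1.22 to 3.01 FPKM, with PDPN at 0 in all 9 libraries. The 4 endothelial markers summed to 0.0618 to 0.141 FPKM, and the 4 blood cell markers to 0 to 0.0927 FPKM, with CD3E and HBB at 0 throughout.

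The way in which Vector replicate 3 stood apart touches many matrix genes. Its deviation from the other Vector libraries rose with the GC content of the transcript (Spearman's rho 0.76 over 16418 genes and 0.9 over the 33 fitted matrix genes, a description across genes, which are not independent). In that library 10 matrix genes lay more than 0.5 higher on the log2 scale than in the other Vector libraries, against 15% of all fitted genes, and 0 lay more than 0.5 lower, against 8.75%. The 10 genes are COL6A1, COL6A2, COL18A1, LAMA5, LAMB2, LAMB3, HSPG2, AGRN, LTBP2 and LOXL1. In KO2 replicate 3 the matching correlations were -0.27 and -0.5, and THBS1 lay 0.645 higher, while COL13A1 was at -0.627 relative to the other KO2 libraries. The part of GC content in the differences between groups was not tested further than by the fits without these libraries and with a GC trend removed, given beside the counts.

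**Figure D1:**
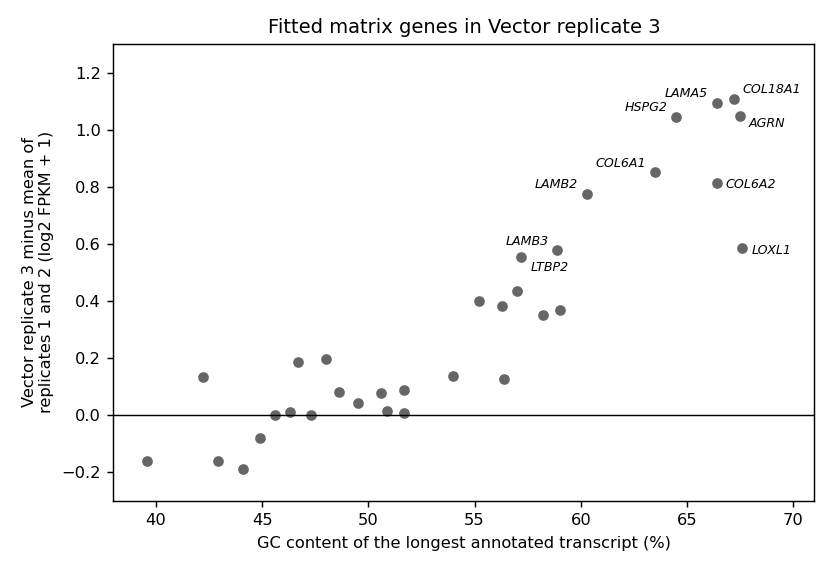
Each point is 1 of the 33 fitted matrix genes. The x axis is the GC content of its longest annotated transcript in percent, and the y axis is Vector replicate 3 minus the mean of Vector replicates 1 and 2 in log2(FPKM + 1). The 10 labelled genes lie more than 0.5 above 0, and all of them have a GC content of at least 57.2%.

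Of the 51 genes, 33 averaged 0.5 FPKM or more across all 9 libraries and entered the test. The other 18 did not, and none of them passed 0.753 FPKM in any library. Of the 33, 32 had a Vector mean of at least 0.5 FPKM, so all but EFEMP1 would have passed on the control alone. Summed over all 51 genes, matrix transcript was 216, 229 and 315 FPKM in the Vector libraries, 523, 523 and 499 in KO1 and 424, 402 and 476 in KO2. Group means were 253 ± 54.2 FPKM for Vector, 515 ± 13.8 for KO1 and 434 ± 38 for KO2 (SD, n = 3 libraries each). The ranges of the 3 groups did not overlap. A single gene, LAMB3, supplied 8.07% of the Vector sum, 21.4% of the KO1 sum and 10.4% of the KO2 sum. In bulk RNA, fewer cells carrying a transcript and less of it per cell cannot be told apart.

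Each fitted gene was tested with limma on log2(FPKM + 1), and called where the Benjamini-Hochberg adjusted p over all 16426 fitted genes was under 0.05. In KO1 against Vector, 12 of the 33 matrix genes rose and 8 fell, where 17.4% of all fitted genes were called higher and 16.7% lower. In KO2 against Vector, 16 rose and 7 fell, beside 12.9% and 15% of all fitted genes. Between the clones, 13 were higher and 9 lower in KO2 than in KO1, beside 14.5% and 16.4%. Called genes thus made up 60.6%, 69.7% and 66.7% of the fitted matrix genes in the 3 comparisons, against 34.1%, 27.9% and 30.9% of all fitted genes. Both clones were compared with the same Vector libraries, so agreement between the first pair of comparisons is not independent.

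The differences were also larger than those of a typical fitted gene, a comparison with the same limits and not matched for expression level. The median absolute log2 difference was 0.89 over the matrix genes and 0.32 over all fitted genes in KO1, 0.89 and 0.28 in KO2, and 0.79 and 0.30 between the clones. A log2 difference of at least 1 was called for 15 matrix genes in KO1, 16 in KO2 and 8 between the clones, beside 7.43%, 5.55% and 6.5% of all fitted genes. The 3 libraries of KO1 and the 3 of Vector did not overlap for 25 of the 33 genes, beside 50.1% of all fitted genes. For KO2 and Vector this held for 26, beside 39%, and for KO2 and KO1 for 26, beside 53.6%. The signed median was 0.23 in KO1 and 0.38 in KO2, with 0.0083 and -0.0049 over all fitted genes, so the set held rising and falling genes side by side. Without Vector replicate 3 and KO2 replicate 3 the counts were 19 higher and 9 lower in KO1 and 19 and 10 in KO2. Calls over all genes then rose to 29.5%, 27.3%, 24.1% and 25.4%, so the 9 and 10 lower genes lay near the background. With a GC trend removed from each library, an alternative chosen after seeing the data, they were 13 and 11 in KO1 and 17 and 8 in KO2, while calls over all genes rose to 22.4%, 22%, 19.4% and 20.3%, so that the 8 lower in KO2 lay near the background. With each library rescaled to the same sum, 12 rose and 9 fell in KO1, beside 12.8% and 19.7% of all genes, and KO2 exceeded KO1 for 13 and lay below it for 7, beside 17.6% and 11.2%. The count of 9 lower in KO2 than in KO1 fell to 5 without KO1 replicate 2, KO1 replicate 3, KO2 replicate 1 or KO2 replicate 2, near the background of 10.6%, 11.5%, 13.3% and 12.4% of all genes in these fits.

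**Figure D2:**
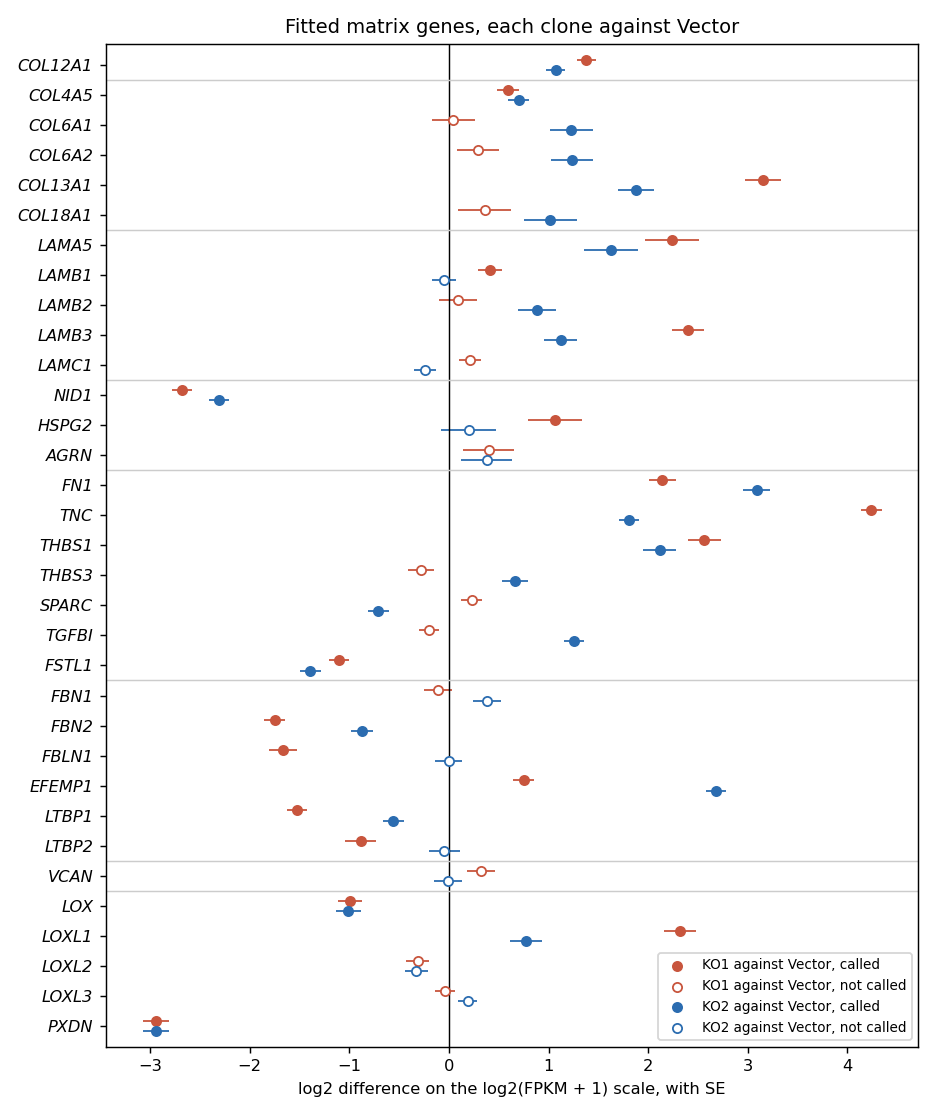
The x axis is the log2 difference from Vector on the log2(FPKM + 1) scale and each row is 1 of the 33 fitted matrix genes, ordered by role with grey lines between roles. Red is KO1 and blue KO2, error bars are SE, and filled points are called at a limma adjusted p under 0.05. TNC lies farthest right in KO1, FN1 in KO2, and PXDN and NID1 farthest left in both clones.

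DNA upstream of a RefSeq start is shown for 4 of the genes that fell or rose strongly, chosen after their values were seen. PXDN and NID1 were nearly silent in both clones, and TNC and THBS1 were far above Vector in both. The stretches lie outside the exons of GENCODE 29, though that of PXDN lies inside the gene, whose annotated start is at 1744852, and were taken from RefSeq promoter windows of GRCh38.p14, in which 41 of the 51 genes had an entry. Capitals mark matches on either strand to TATAAA for a TATA box, GGGCGG for a GC box, CCAAT for the box named after these letters or TGACTCA for an AP-1 site, with overlapping matches counted. Each is printed 5′ to 3′ on the gene's own strand.
PXDN, chr2:1744516-1744765, minus strand, 250 bases: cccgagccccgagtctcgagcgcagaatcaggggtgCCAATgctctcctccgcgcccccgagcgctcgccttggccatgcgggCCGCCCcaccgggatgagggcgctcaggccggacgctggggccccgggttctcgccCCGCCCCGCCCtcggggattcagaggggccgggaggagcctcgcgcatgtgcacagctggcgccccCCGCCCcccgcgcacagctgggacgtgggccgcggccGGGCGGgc
NID1, chr1:236065163-236065340, minus strand, 178 bases: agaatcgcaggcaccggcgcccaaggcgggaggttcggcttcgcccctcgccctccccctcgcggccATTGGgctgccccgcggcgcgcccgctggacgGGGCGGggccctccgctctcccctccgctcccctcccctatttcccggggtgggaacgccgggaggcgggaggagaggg
TNC, chr9:115118258-115118407, minus strand, 150 bases: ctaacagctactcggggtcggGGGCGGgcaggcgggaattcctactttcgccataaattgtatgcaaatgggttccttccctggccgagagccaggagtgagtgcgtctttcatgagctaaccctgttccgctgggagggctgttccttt
THBS1, chr15:39580829-39581078, plus strand, 250 bases: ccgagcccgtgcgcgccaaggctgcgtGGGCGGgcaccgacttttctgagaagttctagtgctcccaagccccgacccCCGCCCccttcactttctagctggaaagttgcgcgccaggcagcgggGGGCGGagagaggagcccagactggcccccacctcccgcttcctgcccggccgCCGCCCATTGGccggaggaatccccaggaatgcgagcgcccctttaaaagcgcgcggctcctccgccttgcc

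The PXDN stretch holds 32 CpG dinucleotides, a number reached by 9.5% of all stretches of that length, with 5 GC boxes and 1 CCAAT box. The NID1 stretch holds 22 CpG (10.2% of stretches of its length hold as many), 1 GC box and 1 CCAAT box. The TNC stretch, by contrast, holds 8 CpG (41.0%) and 1 GC box. The THBS1 stretch holds 24 CpG (23.7%), 4 GC boxes and 1 CCAAT box. Over all stretches of 250 bases, a GC box was found in 42.6%, a CCAAT box in 32.0%, a TATA box in 10.7% and an AP-1 site in 4.2%, and neither of the last pair was found in the 4 printed stretches. These matches describe letters, not binding.

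Fibrillar and fibril-associated collagens, the ropes of interstitial matrix and the proteins that coat them, were too low to test in 6 of 7 cases, COL12A1 being the exception. COL12A1 encodes collagen XII, which sits on the surface of collagen I fibrils. COL12A1 stood at 1.36, 1.55 and 1.47 FPKM in Vector, against 5.16, 5.67 and 5.39 in KO1 and 3.91, 4.01 and 4.61 in KO2. The 3 groups did not overlap, and Vector was the lowest. COL12A1 rose by a log2 difference of 1.38 (SE 0.09, adjusted p = 9.2e-06) in KO1 and 1.07 (adjusted p = 5.9e-05) in KO2. The difference between the clones, -0.31 (SE 0.09, adjusted p = 0.034) for KO2 minus KO1, was no longer called with any 1 of the KO1 libraries, KO2 replicate 1 or KO2 replicate 2 left out (-0.34 to -0.27, adjusted p up to 0.129). Of the other 6 genes, the chains of collagen I, III and V and COL16A1, COL5A2 had the highest mean in Vector, 0.389 FPKM. COL1A1, the main chain of collagen I, stood at 0.029 to 0.0481 FPKM in Vector, against 0 to 0.0191 in KO1 and 0.369 to 0.506 in KO2, below the level at which it was tested.

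Among basement membrane, beaded-filament and transmembrane collagens the chains that usually dominate a basement membrane were hardly detected, and all 5 fitted genes rose in KO2 and 2 of the 5 in KO1. COL4A1 was at 0 in all 9 libraries, which allows up to 0.0128 FPKM in a library (3 reads, counting error only), and COL4A2 had 3 reads in all. These genes are divergent neighbours on chromosome 13, with annotated starts at 110307157 and 110307284 and 126 bases between. COL4A5, whose chain serves basement membranes of kidney and lung, was present instead. In order of replicate, COL4A5 was at 1.58, 1.66 and 1.65 FPKM in Vector, then 2.84, 2.94 and 3.12 in KO1 and 3.47, 3.69 and 2.71 in KO2. It rose by 0.59 (SE 0.11, adjusted p = 0.0030) in KO1 and 0.70 (adjusted p = 0.0016) in KO2. COL7A1, the anchoring fibril collagen, had group means of 0.365 to 0.43 FPKM and was not tested.

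Collagen VI, a microfibril of 3 chains that links basement membrane to interstitial matrix, separated KO2 from the rest. The libraries gave COL6A1 values of 3.26, 2.86 and 6.32 FPKM in Vector, while it was 4.23, 3.94 and 4.12 in KO1 and 12.1, 10.4 and 9.34 in KO2. Levels of COL6A2 were 2.92, 3.37 and 6.28 FPKM in Vector, compared with 5.33, 5.66 and 4.39 in KO1 and 11.9, 10.5 and 10 in KO2. Every KO2 library was above every Vector and KO1 library for both genes, which lie close together on chromosome 21 (45981737 to 46005050 and 46098097 to 46132849 of hg38). COL6A1 rose in KO2 by 1.23 (SE 0.21, adjusted p = 0.0030) and COL6A2 by 1.24 (adjusted p = 0.0027), and KO2 exceeded KO1 by 1.18 (SE 0.21, adjusted p = 0.0032) and 0.95 (adjusted p = 0.0088). In KO1 neither was called, with 0.04 (adjusted p = 0.90) and 0.29 (adjusted p = 0.32). Without Vector replicate 3, in which both were high, COL6A1 was called in KO1 at 0.33 and COL6A2 at 0.56. The third chain, COL6A3, had no read in Vector, 212 reads in KO1 and 12 in KO2. KO1 was at least 73.3-fold above Vector (3 reads over the group as floor), although its level stayed at 0.166 to 0.252 FPKM.

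COL13A1 encodes a transmembrane collagen found at cell adhesions. For COL13A1 the values were 0.929, 0.883 and 1.46 FPKM in Vector, next to 18, 17.2 and 17.1 in KO1 and 8.12, 7.55 and 4.72 in KO2. Mean FPKM was 16-fold that of Vector in KO1 and 6.24-fold in KO2. The log2 differences were 3.15 (SE 0.18, adjusted p = 3.3e-06), 1.88 (adjusted p = 9.8e-05) and, for KO2 minus KO1, -1.27 (adjusted p = 0.00084). COL18A1 encodes collagen XVIII, a basement membrane collagen that carries heparan sulphate and whose end can be released as endostatin. COL18A1 measured 5.73, 5.5 and 13.3 FPKM in Vector, beside 10.5, 10.3 and 9.16 in KO1 and 18.3, 16.3 and 14.5 in KO2. It rose in KO2, by 1.02 (SE 0.26, adjusted p = 0.019). That call was lost without Vector replicate 1, Vector replicate 2, KO2 replicate 1 or KO2 replicate 2 (0.82 to 1.02, adjusted p up to 0.0728). In KO1 (0.36, adjusted p = 0.33) it was not called, and without Vector replicate 3 it was, at 0.73. KO2 minus KO1 (0.66, adjusted p = 0.089) was likewise called without that library, at 0.66. Its exons share 16.43% of their bases with SLC19A1 on the other strand, and the strand setting of the counting is not given in the sources used here, so its value is uncertain.

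Laminins are trimers of an alpha, a beta and a gamma chain, and their summed level was the highest of the 8 roles in every group. Of the 8 listed chains, 5 were fitted. In KO1 3 of the 5 rose and 0 fell, and in KO2 the same count rose, with LAMB1 called in KO1 but not in KO2 and LAMB2 in KO2 but not in KO1. LAMA5 encodes the alpha chain most common in adult lung basement membrane. LAMA5 stood at 6.44, 8.62 and 17.1 FPKM in Vector, against 51.1, 51.3 and 49.1 in KO1 and 32, 28.9 and 37.6 in KO2. It rose 4.72-fold in mean FPKM in KO1, by a log2 difference of 2.24 (SE 0.27, adjusted p = 0.0003), and 3.06-fold in KO2, by 1.63 (adjusted p = 0.0024). Vector replicate 3 was the highest Vector library and still lay under all 6 clone libraries. KO2 minus KO1, -0.61 (adjusted p = 0.12), was not called, but was without Vector replicate 3, at the same difference (adjusted p = 0.00556).

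LAMB3 encodes the beta chain that pairs with LAMA3 in the laminin of hemidesmosomes, which anchor epithelial cells. In order of replicate, LAMB3 was at 18, 16.8 and 26.5 FPKM in Vector, then 116, 109 and 105 in KO1 and 43.7, 40.8 and 50.5 in KO2. The groups were fully separate, and KO1 carried 5.39 times and KO2 2.2 times the Vector mean. LAMB3 rose by 2.40 (SE 0.16, adjusted p = 9.6e-06) in KO1 and 1.12 (adjusted p = 0.0012) in KO2, and KO2 minus KO1 was -1.28 (adjusted p = 0.00052). LAMA3 was untested, at 0.534 to 0.753 FPKM in Vector, against 0.324 to 0.451 in KO1 and 0.3 to 0.378 in KO2.

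LAMB1 and LAMB2 encode the beta chains that alternate beside LAMC1, the most widely used gamma chain. The libraries gave LAMB2 values of 15.7, 17.8 and 29.3 FPKM in Vector, while it was 22.4, 21.6 and 20.9 in KO1 and 38.2, 36.3 and 40.1 in KO2. Only the KO2 libraries cleared all Vector libraries, and LAMB2 rose there by 0.89 (SE 0.19, adjusted p = 0.0089). In KO1 its difference was 0.09 (adjusted p = 0.74), not called, but 0.35 and called without Vector replicate 3. Levels of LAMC1 were 23.6, 25.7 and 26.1 FPKM in Vector, compared with 28.7, 29.4 and 29.7 in KO1 and 19.4, 19.7 and 24.6 in KO2. LAMC1 was not called in either clone, at 0.21 (adjusted p = 0.16) in KO1 and -0.24 (adjusted p = 0.14) in KO2. KO2 minus KO1 was -0.45 (adjusted p = 0.013), a call lost without KO1 replicate 2, KO1 replicate 3, KO2 replicate 1 or KO2 replicate 2 (-0.45 to -0.40, adjusted p up to 0.0544). Without KO2 replicate 3 it was called lower in KO2 than in Vector, at -0.35. LAMB1 had group means of 19.7, 26.7 and 19.3 FPKM, with a rise in KO1 (0.42, SE 0.12, adjusted p = 0.025) that was lost without Vector replicate 1, Vector replicate 2 or any 1 KO1 library (0.39 to 0.43, adjusted p up to 0.0833). Against KO1, KO2 was lower (-0.46, adjusted p = 0.018), which was lost without any 1 KO1 library, KO2 replicate 1 or KO2 replicate 2 (-0.47 to -0.39). LAMA4, an endothelial alpha chain, had 0.0945 to 0.163 FPKM in Vector, against 0.429 to 0.568 in KO1 and 0.0193 to 0.0391 in KO2, and LAMA1 at most 0.0115 in any library.

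LAMA2, the alpha chain of muscle and nerve basement membrane, is a relative outside the list of 51. Its levels were 6.26, 7.3 and 6.74 FPKM in Vector, against 0.26, 0.202 and 0.217 in KO1 and 0.0765, 0.0646 and 0.0656 in KO2. It was the most expressed alpha chain after LAMA5 in Vector and fell in both clones, with log2 differences of -2.66 (SE 0.10, adjusted p = 3.6e-07) in KO1 and -2.86 (adjusted p = 4.9e-07) in KO2. Summed over the 8 listed chains, laminin transcript was 97.8 ± 19.5 FPKM for Vector, 239 ± 7.25 for KO1 and 157 ± 17.3 for KO2 (mean ± SD, n = 3).

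**Figure D3:**
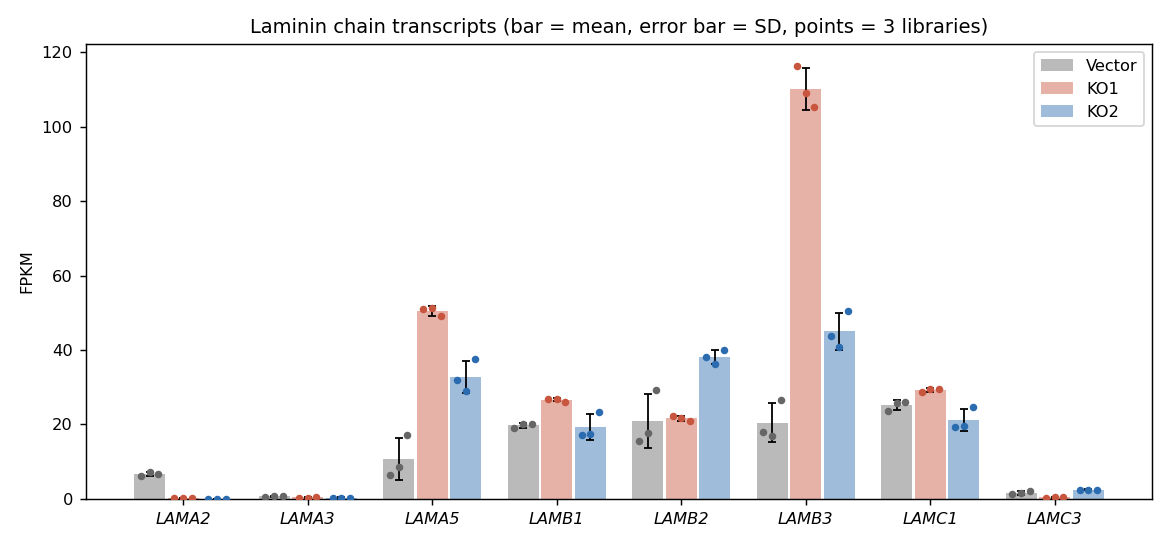
Bars are mean FPKM of 8 laminin chain genes in Vector (grey), KO1 (red) and KO2 (blue), with SD as error bars and 1 point per library. LAMB3 and LAMA5 stand above Vector in both clones, and LAMA2 is near 0 in both. LAMC1 shows small differences, with the KO1 libraries above those of Vector and KO2. LAMA2 and LAMC3 are shown for comparison and do not belong to the 51 genes.

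The linkers of the basement membrane went separate ways. Nidogen 1, encoded by NID1 (ENSG00000116962, chromosome 1, 235975830 to 236065162 of hg38, minus strand), bridges the laminin network and collagen IV. For NID1 the values were 5.21, 5.41 and 5.71 FPKM in Vector, next to 0, 0.0105 and 0 in KO1 and 0.232, 0.285 and 0.4 in KO2. The KO1 libraries held 1 read against 1628 in Vector. Scaled to library size, the ratio of these reads was 1570 in favour of Vector (95% interval 281 to 62000, counting error only). The mean FPKM of KO2 was 17.8-fold below that of Vector. NID1 fell, with log2 differences of -2.68 (SE 0.10, adjusted p = 3.6e-07) in KO1 and -2.30 (adjusted p = 1.1e-06) in KO2. KO2 minus KO1 was 0.38 (adjusted p = 0.021), lost without any 1 KO1 library or KO2 replicate 2 (0.38 to 0.39). NID2, its paralog, was too low to test: 0.162 to 0.312 FPKM in Vector, against 0.049 to 0.0577 in KO1 and 0.454 to 0.664 in KO2, with 29.96% of its exon bases shared with RTRAF on the other strand.

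HSPG2 encodes perlecan and AGRN agrin, heparan sulphate proteoglycans that bind laminin. HSPG2 measured 4.18, 6.24 and 11.6 FPKM in Vector, beside 15.2, 16.2 and 14.6 in KO1 and 7.3, 7.08 and 9.67 in KO2. The KO1 libraries were above all Vector libraries, while KO2 lay within the Vector range. HSPG2 rose in KO1 by 1.06 (SE 0.27, adjusted p = 0.016), a call lost without Vector replicate 2 or KO1 replicate 2 (1.01 and 1.03, adjusted p up to 0.0519). It was not called in KO2 (0.20, adjusted p = 0.63), but was without Vector replicate 3, at 0.55. KO2 minus KO1 was -0.87 (adjusted p = 0.039), lost without Vector replicate 2, any 1 KO1 library, KO2 replicate 1 or KO2 replicate 2 (-0.90 to -0.79). Its exons share 11.72% of their bases with LDLRAD2 on the other strand. AGRN was called in no comparison and ranged from 10.4 to 23.4 FPKM, the top value being Vector replicate 3.

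The adhesive and matricellular glycoproteins, secreted proteins that bind cell surface receptors and tune adhesion, held the largest rise of each clone among the fitted matrix genes on the log2(FPKM + 1) scale, TNC in KO1 and FN1 in KO2. In KO1 3 of 7 fitted members rose and 1 fell. In KO2 5 rose and 2 fell, so all 7 were called there. FN1 encodes fibronectin, the integrin-binding glycoprotein on which many other matrix proteins are laid down. FN1 stood at 4.93, 6.25 and 6.2 FPKM in Vector, against 28, 30.1 and 28.5 in KO1 and 52, 51 and 68.5 in KO2. Each group occupied its own range, in the order Vector, KO1, KO2. Mean FPKM rose 4.98-fold in KO1 and 9.86-fold in KO2, with log2 differences of 2.14 (SE 0.14, adjusted p = 6.1e-06) and 3.09 (adjusted p = 1.1e-06), and KO2 exceeded KO1 by 0.95 (adjusted p = 0.00091).

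TNC (ENSG00000041982, chromosome 9, 115019578 to 115118257 of hg38, minus strand) encodes tenascin C, an anti-adhesive glycoprotein typical of embryos, wounds and tumour stroma. In order of replicate, TNC was at 0.845, 1.03 and 1.13 FPKM in Vector, then 36.8, 37.1 and 36.5 in KO1 and 6.04, 5.39 and 6.65 in KO2. Here the order was Vector, KO2, KO1, again with no overlap. TNC rose 36.8-fold in KO1 and 6.02-fold in KO2 in mean FPKM, by log2 differences of 4.24 (SE 0.10, adjusted p = 6.1e-08) and 1.81 (adjusted p = 4.2e-06), and KO2 lay below KO1, with a difference of -2.43 (SE 0.10, adjusted p = 7.9e-07). FN1 and TNC thus differed between the clones in opposite directions. THBS1 (ENSG00000137801, chromosome 15, 39581079 to 39599466 of hg38, plus strand) encodes thrombospondin 1, which binds CD47 and can activate latent TGF-beta. The libraries gave THBS1 values of 7.65, 7.33 and 7.5 FPKM in Vector, while it was 49, 50.8 and 47.9 in KO1 and 30.9, 30.5 and 48.6 in KO2. All clone libraries were far above every Vector library, and KO2 replicate 3 reached the level of KO1. THBS1 rose by 2.56 (SE 0.16, adjusted p = 6.2e-06) in KO1 and 2.11 (adjusted p = 2.9e-05) in KO2. The clones differed by -0.45 (adjusted p = 0.065), not called, and by -0.66, called, without KO2 replicate 3. Opposite-strand genes, FSIP1 among them, share 7.58% of its exon bases.

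TGFBI encodes a TGF-beta-induced adhesion protein. Levels of TGFBI were 2.38, 2.26 and 2.5 FPKM in Vector, compared with 2.25, 1.99 and 1.64 in KO1 and 6.99, 7.08 and 7.07 in KO2. KO2 alone was high: TGFBI rose there by 1.25 (SE 0.10, adjusted p = 3.4e-05) and was not called in KO1 (-0.20, adjusted p = 0.16), and the clones differed by 1.45 (SE 0.10, adjusted p = 1.5e-05). FSTL1 encodes a secreted follistatin-like protein that binds growth factors of the TGF-beta family. For FSTL1 the values were 3.33, 3.21 and 2.75 FPKM in Vector, next to 0.84, 0.937 and 0.929 in KO1 and 0.519, 0.607 and 0.559 in KO2. All 6 clone libraries lay below Vector, and FSTL1 fell, with log2 differences of -1.11 (SE 0.10, adjusted p = 5.4e-05) in KO1 and -1.39 (adjusted p = 2.1e-05) in KO2. The clones differed by -0.28 (adjusted p = 0.060), called without Vector replicate 3.

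SPARC, a collagen-binding protein, had group means of 1.82, 2.3 and 0.721 FPKM in Vector, KO1 and KO2, and fell in KO2 (-0.71, SE 0.11, adjusted p = 0.0014). THBS3, a thrombospondin of the pentameric class, had 9.6, 7.68 and 15.7 FPKM and rose in KO2 (0.66, SE 0.13, adjusted p = 0.0049). Of the THBS3 exon bases, 25.37% are shared with opposite-strand genes including MTX1. THBS2 and SPOCK1 were not tested, and THBS2 reached 0.694 FPKM at most.

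**Figure D4:**
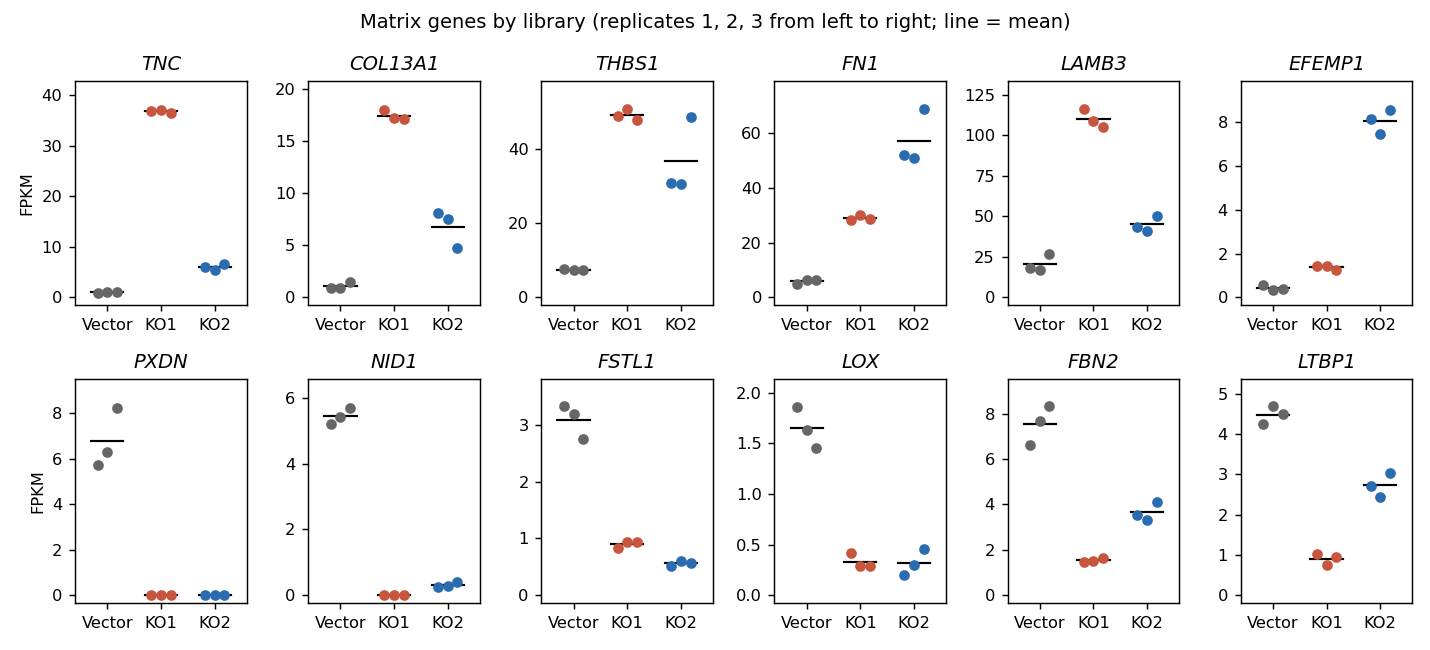
Each panel shows 1 gene, with FPKM on a linear y axis and 1 point per library (replicates 1 to 3 from left to right in each group) and a line at the group mean. The upper 6 genes have every clone library above every Vector library, and the lower 6 have every clone library below every Vector library. The order of KO1 and KO2 differs from gene to gene.

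Elastic fibre and microfibril genes were the one role in which all fitted members, 6 of 6, were called higher in KO2 than in KO1. Against Vector, KO1 had 4 lower and 1 higher, and KO2 had 2 lower and 1 higher. Fibrillins form the microfibrils on which elastin is laid down. FBN2 measured 6.61, 7.7 and 8.34 FPKM in Vector, beside 1.47, 1.52 and 1.61 in KO1 and 3.54, 3.33 and 4.09 in KO2. FBN2, the fibrillin of developing tissue, was lowest in KO1 and intermediate in KO2, with no overlap. It fell, with log2 differences of -1.75 (SE 0.11, adjusted p = 5.4e-06) in KO1 and -0.88 (adjusted p = 0.00046) in KO2, with 0.87 (adjusted p = 0.00042) between the clones. FBN1, the adult fibrillin, was called in neither clone, with group means of 4.87, 4.43 and 6.69 FPKM. Its difference between the clones (0.49, SE 0.14, adjusted p = 0.028) was lost without any 1 of the KO1 libraries (0.46 to 0.52, adjusted p up to 0.0931).

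The fibulins are small glycoproteins that join elastic fibres to basement membranes. FBLN1 stood at 2.24, 2.05 and 3.25 FPKM in Vector, against 0.12, 0.118 and 0.0487 in KO1 and 2.37, 2.31 and 2.73 in KO2. FBLN1 fell to near 0 in KO1 (-1.67, SE 0.14, adjusted p = 2.8e-05), while KO2 stayed within the Vector range (-0.00, adjusted p = 0.99, not called), and KO2 exceeded KO1 by 1.66 (SE 0.14, adjusted p = 4.3e-05). EFEMP1 encodes fibulin 3. In order of replicate, EFEMP1 was at 0.552, 0.328 and 0.359 FPKM in Vector, then 1.44, 1.43 and 1.25 in KO1 and 8.13, 7.48 and 8.57 in KO2. It rose in steps without overlap, 3.33-fold in KO1 and 19.5-fold in KO2 in mean FPKM. The log2 differences were 0.75 (SE 0.10, adjusted p = 0.00065), 2.68 (adjusted p = 7.7e-07) and, between the clones, 1.93 (adjusted p = 4.1e-06). FBLN1 and EFEMP1, members of 1 family, therefore had different orders of the groups. FBLN5, a relative outside the 51 and named after its values were seen, had 1.95, 1.79 and 1.77 FPKM in Vector, against 0 in all 3 libraries of KO1 and 0.0341, 0.0449 and 0.0497 in KO2.

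Latent TGF-beta binding proteins hold the growth factor in the matrix. The libraries gave LTBP1 values of 4.26, 4.69 and 4.5 FPKM in Vector, while it was 1.02, 0.755 and 0.953 in KO1 and 2.71, 2.44 and 3.04 in KO2. LTBP1 fell, with log2 differences of -1.52 (SE 0.10, adjusted p = 9.1e-06) in KO1 and -0.56 (adjusted p = 0.0041) in KO2, with KO2 above KO1 by 0.97 (adjusted p = 0.00018). LTBP2, which binds fibrillin but not TGF-beta, had group means of 26.2, 13.5 and 24.9 FPKM. It was called lower in KO1 (-0.89, SE 0.15, adjusted p = 0.0022), where the median of the fitted genes within 5 Mb was also lower, at -0.67. After subtracting that median the difference was -0.19 and no longer called (adjusted p = 0.415). The same step took the difference between the clones from 0.84 to 0.45 (adjusted p = 0.0705), and the only other matrix gene whose call it ended was FBN1, between the clones. It also added calls, among them FBN1 higher in KO2 at 0.52 and LAMC1 lower in KO2 at -0.32. Others were THBS3 lower in KO1 at -0.53, and THBS1 and FSTL1 lower in KO2 than in KO1, at -0.61 and -0.60.

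Of the 2 genes placed in the role of proteoglycans, VCAN and BGN, only VCAN was fitted. HSPG2 and AGRN, also proteoglycans, were counted with the linkers. VCAN, which encodes versican, was called in no comparison and ranged from 1.36 to 2.48 FPKM. BGN, which encodes biglycan, was at 0 in all 9 libraries, which allows up to 0.0766 FPKM in a library (3 reads).

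Crosslinking enzymes held the deepest loss of the set and a large gain. In each clone 1 of the 5 fitted enzymes rose and 2 fell. PXDN (ENSG00000130508, chromosome 2, 1631887 to 1744852 of hg38, minus strand) encodes peroxidasin, which forms the sulfilimine bonds between collagen IV units. Levels of PXDN were 5.73, 6.3 and 8.24 FPKM in Vector, compared with 0 in all 3 libraries of KO1 and 0 in all 3 libraries of KO2. The 6 clone libraries held no read, against 3894 reads in the 3 Vector libraries. PXDN was at least 1250-fold lower in KO1 and 1310-fold lower in KO2 (3 reads over the group as floor), and the limma adjusted p was 8.6e-07 and 1.1e-06. No exon of PXDN overlaps another gene. Of the listed genes of collagen IV, its substrate, COL4A1 and COL4A2 had 0 and 3 reads over the 9 libraries. COL4A5 was present, with group means of 1.63, 2.97 and 3.29 FPKM in Vector, KO1 and KO2.

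Lysyl oxidases oxidise lysines of collagen and elastin so that chains can bond. For LOXL1 the values were 4.89, 4.89 and 7.84 FPKM in Vector, next to 34.4, 35 and 29.1 in KO1 and 11, 10.8 and 9.88 in KO2. LOXL1, the family member needed for elastic fibres, rose 5.59-fold in KO1 and 1.8-fold in KO2 in mean FPKM. The log2 differences were 2.32 (SE 0.16, adjusted p = 1.1e-05), 0.78 (adjusted p = 0.0073) and, for KO2 minus KO1, -1.55 (adjusted p = 0.00016). LOXL1-AS1 on the other strand shares 9.21% of its exon bases. LOX itself fell in both clones, from a mean of 1.65 FPKM to 0.331 in KO1 (-0.99, SE 0.12, adjusted p = 0.00036) and 0.317 in KO2 (-1.01, adjusted p = 0.00044). LOXL2, at 8.08 to 13.2 FPKM (called once the median of its neighbours was subtracted, at -0.50 in KO1 and -0.67 in KO2), and LOXL3, at 1.29 to 1.89, were called in no comparison, and LOXL4 stayed under the level tested.

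Other genes of matrix biology were read from the same fit, in lists also chosen with earlier results of these data known. The list of collagen maturation and secretion genes, with 25 of 30 fitted, had 7 higher and 8 lower in KO1 and 4 higher and 3 lower in KO2, a share called of 60% and 28% beside the 34.1% and 27.9% of all genes. P3H2, a collagen prolyl hydroxylase, rose in both clones, by 1.38 (SE 0.10, adjusted p = 1.4e-05) in KO1 and 0.83 (adjusted p = 0.00042) in KO2. PCOLCE2, which speeds removal of the procollagen tail, fell in both, with log2 differences of -0.84 (SE 0.11, adjusted p = 0.0006) and -0.54 (adjusted p = 0.0080). In KO1 the lysyl hydroxylases went apart, with PLOD3 at 0.67 (adjusted p = 0.015) and PLOD2 at -0.71 (adjusted p = 0.0028), both called. The PLOD3 call was lost without Vector replicate 1, Vector replicate 2, KO1 replicate 1 or KO1 replicate 2 (0.54 to 0.66). In KO2 BMP1, the enzyme that cleaves procollagen tails, rose by 0.77 (SE 0.17, adjusted p = 0.0097), a call that ended once the median of its neighbours was subtracted. BMP1 was also called higher in KO1, at 0.51 to 0.83 with 1 library left out at a time. The KO1 call was lost in 5 of these 9 fits.

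Of non-integrin matrix receptors, 16 of 21 were fitted, and 8 rose and 1 fell in KO1, 9 rose and 2 fell in KO2. These are 56.2% and 68.8% of the fitted receptors, beside 34.1% and 27.9% of all fitted genes. SDC1, a heparan sulphate syndecan of epithelial cells, had 1.12, 1.35 and 1.79 FPKM in Vector, against 22.7, 21.7 and 20.4 in KO1 and 2.79, 2.36 and 2.56 in KO2. It rose by 3.23 (SE 0.12, adjusted p = 3.6e-07) in KO1 and 0.57 (adjusted p = 0.0068) in KO2, and the clones differed by -2.66 (adjusted p = 1.2e-06). DDR1, a collagen receptor kinase, rose in both clones, by 1.90 (SE 0.19, adjusted p = 9.6e-05) and 1.27 (adjusted p = 0.0014). So did the glypican GPC1, by 1.25 (SE 0.17, adjusted p = 0.00066) and 2.03 (adjusted p = 5.2e-05). BCAM, a receptor for the LAMA5 chain, had group means of 9.87, 3.29 and 19.1 FPKM. It fell in KO1 (-1.30, SE 0.23, adjusted p = 0.0027) and rose in KO2 (0.90, adjusted p = 0.019), the second call being lost without Vector replicate 1, Vector replicate 2, KO2 replicate 1 or KO2 replicate 2 (0.74 to 0.83). LRP1, an endocytic receptor that clears thrombospondin, rose in KO2 (1.64, SE 0.23, adjusted p = 0.00089) and was not called in KO1 (0.24, adjusted p = 0.45).

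Of TGF-beta ligands, receptors, SMADs and direct targets, 20 of 23 were fitted. In KO1 5 rose and 6 fell, and in KO2 4 rose and 3 fell. These are 55% and 35% of the fitted list, beside 34.1% and 27.9% of all fitted genes, so the KO2 share lay near the background. PMEPA1, a feedback inhibitor, rose in both clones, by 2.65 (SE 0.12, adjusted p = 9.3e-07) and 1.74 (adjusted p = 1.7e-05). TGFB2, a ligand, rose in KO2 from a Vector mean of 1.16 FPKM to 5.58 (adjusted p = 5.5e-05) and was not called in KO1, at a mean of 0.69 FPKM (adjusted p = 0.075). SMAD3, a signal carrier, fell in KO1 (-0.87, SE 0.09, adjusted p = 9.6e-05) and was not called in KO2 (0.22, adjusted p = 0.094).

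Of 61 relatives of the listed families that are not among the 51 genes, 14 were fitted. In KO1 5 rose and 6 fell, and in KO2 3 rose and 4 fell. These are 78.6% and 50% of the fitted relatives, beside 34.1% and 27.9% of all fitted genes. MFAP2, a microfibril protein, rose in KO1 (1.59, SE 0.27, adjusted p = 0.0021), with group means of 6.33, 20.9 and 3.78 FPKM and no call in KO2 (-0.69, adjusted p = 0.090). MATN2, a matrilin, rose in both clones, by 1.05 (SE 0.12, adjusted p = 0.00024) and 0.54 (adjusted p = 0.011). LAMC3 fell in KO1 (-0.86, SE 0.14, adjusted p = 0.0017) and was higher in KO2 than in KO1 (1.23, adjusted p = 0.00028).

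Between the clones, the maturation list had 5 genes higher and 3 lower in KO2, the receptors 4 and 5, the TGF-beta list 3 and 5, and the relatives 5 and 5. Called genes were 32%, 56.2%, 40% and 71.4% of those fitted, beside the 30.9% of all genes.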

How the data were processed

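RNA was measured in 9 libraries, 3 each of Vector, KO1 and KO2. Per the labels' protocols, TRIzol was used for total RNA, a NEBNext Ultra kit for the libraries and a NovaSeq 6000 for sequencing. The deposited table holds FPKM values for 58735 genes. The submitters' processing notes name CASAVA 1.6, HISAT2 2.0.5, featureCounts 1.5.0-p3 and hg38 for the steps before that table. Options and strand setting: not given in the sources used here. FPKM multiplied by the merged exon length of GENCODE 29 gave whole reads (tolerance 0.02 reads) for 100% of values.

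Values were analysed as log2(FPKM + 1), which understates changes of low genes. In R 4.3.3, limma 3.58.1 (trended empirical Bayes, two-sided) was fitted to the 16426 genes that averaged 0.5 FPKM or more, all 9 libraries together, with the group as the only term. P-values were adjusted by the Benjamini-Hochberg method over all fitted genes in each of 3 comparisons. The procedure was tested on simulated data. Folds of mean FPKM have no pseudocount. Reads can be misassigned where genes overlap or share sequence with close copies.

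Groups came from the sample titles, and all 9 columns were mapped. The 51 genes and the other lists were chosen with earlier results of these data known. Library values are given for genes called with an absolute log2 difference of at least 1 in any comparison and a group mean of at least 2 FPKM, and for the 6 genes with the highest mean. From each other list up to 3 genes called higher and 3 called lower per clone were eligible, at a mean of at least 1 FPKM, and the text names some of them; others are counted in their lists but not reported by name here. Alternatives covered scaling, pseudocount, filters, library weights, limma-voom on recovered reads, neighbouring genes within 5 Mb, GC content and each library left out.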

Additional observations from a re-analysis of the deposited data

How the results depend on the processing

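Over all alternatives run, 2998 values of single genes kept their direction and their side of the threshold, 151 lost a call, 45 gained one and 17 changed sign, all of them between values that were not called. Counts of matrix genes called moved by over 1.5 times under 7 settings. Library weights gave 20 higher in KO1 and 11 lower in KO2, beside 34% and 30.7% of all genes. They also gave 10 lower in KO1, beside 31.6%, so the falling genes lay near the background in both clones. Leaving out Vector replicate 3 and KO2 replicate 3 gave 19 higher in KO1, beside 29.5%. A filter at a mean of 2 FPKM left 26 genes, with 4 lower in KO1 and 3 lower in KO2, beside 16.3% and 17.6% of all genes, so the falling genes no longer exceeded the background. The other 4 settings each left out 1 clone library, and 5 genes were then lower in KO2 than in KO1. With no filter 49 genes were fitted, with 15 higher and 8 lower in KO1 and 19 and 7 in KO2, beside 7.36%, 8.66%, 6.08% and 7.25%. With 1 library left out at a time, the counts in KO1 ranged from 10 to 17 higher and stayed at 8 lower. Of all genes, 11.2% to 23.2% and 11.4% to 21.6% were called in these fits. In KO2 the counts ranged from 15 to 19 higher and 7 to 8 lower, beside 8.91% to 18.8% and 10.6% to 21%. For KO2 against KO1 they ranged from 11 to 14 higher and 5 to 11 lower, beside 9.81% to 18.8% and 10.5% to 22.4%. Without Vector replicate 3, 8 were lower in KO1 and 7 in KO2, beside 21.6% and 21% of all genes. The falling genes thus lay near the background in that fit. Sign changes touched 4 genes, and their cause was not tested. COL6A1 in KO1 was -0.0298 with libraries rescaled to the same sum, -0.1701 with the GC trend removed, and from -0.1325 without Vector replicate 2 to 0.328 without Vector replicate 3, with -0.0614 without Vector replicate 1. LAMB2 in KO1 was -0.1293 with the neighbours' median subtracted, -0.0806 with the GC trend removed, and from -0.0793 without Vector replicate 1 to 0.3518 without Vector replicate 3. HSPG2 in KO2 was -0.0077 with the GC trend removed, and from -0.0975 without Vector replicate 1 to 0.546 without Vector replicate 3. FBLN1 in KO2 was 0.0011 with a pseudocount of 0.1, 0.0114 rescaled, 0.0084 centred on the median gene, 0.1068 with library weights and 0.0887 without both libraries that stood apart. It ranged from -0.0972 without Vector replicate 2 to 0.1416 without Vector replicate 3, with 0.0168 without KO2 replicate 1 and 0.0291 without KO2 replicate 2. Replicate numbers did not pair the samples: deviations of same-numbered libraries correlated at -0.202 to 0.142. With the replicate block the counts were 12 higher and 8 lower in KO1, 16 and 7 in KO2, and 13 and 8 between the clones, beside 15.1%, 14.8%, 11%, 13.1%, 12.7% and 14.2% of all genes. The filter at a mean of 0.5 FPKM kept out 18 genes, which had at most 187 reads in a library. With each clone standing for 1 founder cell, nothing here measures how other clones would vary.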
